A study of Mus musculus with 6 samples.

Results

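Among the 18333 differentially methylated regions (DMRs) that separate infant from young adult lung endothelial cells (EC), 342 lay in 36 dense runs in which loss and gain of methylation stood side by side. The DMRs of chromosomes 1 to 19 were put in genomic order, neighbours no more than 10 kb apart were joined into a run, and a run was kept if it held 6 or more DMRs and both directions of change. The members were thus chosen by the position of the DMRs and by the sign of the difference between the group means. A loss of methylation DMR had a lower mean in young adult than in infant EC, and a gain of methylation DMR a higher one. These 342 members, 200 of loss and 142 of gain, made up 1.88% of the 18168 DMRs on these chromosomes. Their number, order, direction and methylation values are therefore a description and carry no test.

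The DNA came from EC sorted from lungs of C57BL/6N mice, described in the methods of the study as female, with no transgene or treatment named. The infant group (3 samples) was 8 to 10 days old and the young adult group (3 samples) 8 to 12 weeks old. The study describes the samples of each group as biological triplicates. The assay was T-WGBS, bisulfite sequencing of the whole genome from libraries cut and tagged by a transposase, in which bisulfite turns unmethylated cytosine into uracil, gave the share of methylated reads at each CpG. The sort kept CD31+ CD34+ cells that lacked PTPRC, LYVE1, LY76 and PDPN, markers of leukocytes, lymphatic EC and erythroid cells. The file analysed gave each DMR a mean of each group and neither sample values nor coverage, so the depth and the spread between samples behind each mean were unknown. It could not show whether the sorted cells expressed the markers of EC. A fraction of differing cells and a partial change within every cell cannot be told apart in such means.

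In mammals, DNA methylation is laid down almost wholly at CpG dinucleotides. Promoters rich in CpG (CpG islands) usually stay unmethylated, gene bodies are usually methylated, and active enhancers tend to carry low methylation. Long broadly unmethylated domains are known at genes of developmental transcription factors, such as the HOX and T-box families, which hold positional and cell type programs.

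The sequences of the closest pairs of opposite members show how near to each other the directions came. They are printed 5′ to 3′ on the plus strand of mm10 (GRCm38.p6, RefSeq), with each CpG in capitals.
Tmem140 upstream gain: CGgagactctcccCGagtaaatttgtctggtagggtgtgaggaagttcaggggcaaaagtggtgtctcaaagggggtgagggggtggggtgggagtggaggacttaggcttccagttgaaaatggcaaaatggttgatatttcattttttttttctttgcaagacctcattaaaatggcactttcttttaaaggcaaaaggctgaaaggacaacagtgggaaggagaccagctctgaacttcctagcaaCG
Tmem140 upstream loss: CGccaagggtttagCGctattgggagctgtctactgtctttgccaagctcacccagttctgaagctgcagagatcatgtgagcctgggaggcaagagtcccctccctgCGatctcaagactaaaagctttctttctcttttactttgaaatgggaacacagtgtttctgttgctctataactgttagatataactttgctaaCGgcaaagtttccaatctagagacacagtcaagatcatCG
Hoxb3 gain: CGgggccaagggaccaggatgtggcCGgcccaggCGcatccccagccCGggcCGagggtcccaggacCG
Hoxb3 loss: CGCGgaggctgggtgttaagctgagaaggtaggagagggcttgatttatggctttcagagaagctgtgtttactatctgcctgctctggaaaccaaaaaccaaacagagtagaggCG
Skap2 loss: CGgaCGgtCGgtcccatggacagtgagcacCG
Skap2 gain: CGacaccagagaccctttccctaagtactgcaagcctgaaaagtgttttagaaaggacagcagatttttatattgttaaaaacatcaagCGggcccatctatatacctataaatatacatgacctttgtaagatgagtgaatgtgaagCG
Tbx3os1 gain: CGggttccCGggcccctgtgaaccCG
Tbx3os1 loss: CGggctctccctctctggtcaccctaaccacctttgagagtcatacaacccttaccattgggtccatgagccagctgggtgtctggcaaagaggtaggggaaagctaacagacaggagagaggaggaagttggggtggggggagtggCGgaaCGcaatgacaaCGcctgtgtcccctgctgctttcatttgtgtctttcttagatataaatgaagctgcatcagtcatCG
Gcnt2 gain: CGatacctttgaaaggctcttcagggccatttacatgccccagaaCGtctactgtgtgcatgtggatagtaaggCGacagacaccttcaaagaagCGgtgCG
Gcnt2 loss: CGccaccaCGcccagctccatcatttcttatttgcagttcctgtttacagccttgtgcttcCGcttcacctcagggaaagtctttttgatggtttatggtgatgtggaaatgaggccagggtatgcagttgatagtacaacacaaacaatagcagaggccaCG
Adgrl2 upstream loss: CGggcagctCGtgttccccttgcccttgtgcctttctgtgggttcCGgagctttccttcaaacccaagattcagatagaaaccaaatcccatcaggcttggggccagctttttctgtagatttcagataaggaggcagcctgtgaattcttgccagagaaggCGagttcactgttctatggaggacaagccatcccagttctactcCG
Adgrl2 upstream gain: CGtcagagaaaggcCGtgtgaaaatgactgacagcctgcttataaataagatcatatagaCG
The pair upstream of Tmem140, which encodes a transmembrane protein, was 345 bp apart at chr6:34861921-34862171 and chr6:34862517-34862758. The gain member had a mean methylation of 54.9% in the infant and 72.1% in the young adult group, and the loss member fell by 50.7 percentage points from 75.6%, so the order of the neighbours turned over between the ages. In intron 1 of Hoxb3 (transcript NM_001079869), the members at chr11:96333067-96333135 and chr11:96333597-96333713 were 461 bp apart. The gain member went from 37.2% to 65.9%, and the loss member from 20.3% to 2.23%. In intron 10 of Skap2, which encodes a Src kinase associated adaptor, a loss from 25.2% to 8.08% at chr6:51876998-51877029 lay 773 bp from a gain from 28.4% to 62.8% at chr6:51877803-51877952. Of these pairs, Hoxb3 and Skap2 thus held neighbours whose levels were within 20 percentage points of each other in the infant and moved apart, whereas those of Tmem140 crossed. The Tbx3os1 pair was 1149 bp apart (chr5:119663273-119663298 and chr5:119664448-119664677, both in its intron 1). The Gcnt2 pair was 1415 bp apart (chr13:40918197-40918298 in an exon and chr13:40919714-40919876 in an intron). The pair upstream of Adgrl2 was 1422 bp apart (chr3:149087486-149087693 and chr3:149089116-149089177). This pair was intergenic and far from the gene, 132954 and 134511 bp before its transcription start site.

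Of the 306 pairs of neighbouring members, 47 (15.4%) were of opposite direction. The rule itself required at least 1 such pair in each of the 36 runs. In 26 of the 36 runs the direction switched only once, 9 runs had 2 switches, and the run upstream of Adgrl2 had 3. In 21 runs the minority direction was a single DMR, which was gain in 14 and loss in 7, and in 14 of these 21 it stood at an end of the run. These lone DMRs differed between the ages by a median of 21.4 percentage points, the smallest by 13.6. The other 15 runs held 2 or more DMRs of each direction, and 12 of these 15 switched only once, so their losses and gains formed 2 blocks. Loss outnumbered gain in 19 runs, gain outnumbered loss in 15, and 2 runs held as many of each.

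**Figure D1:**
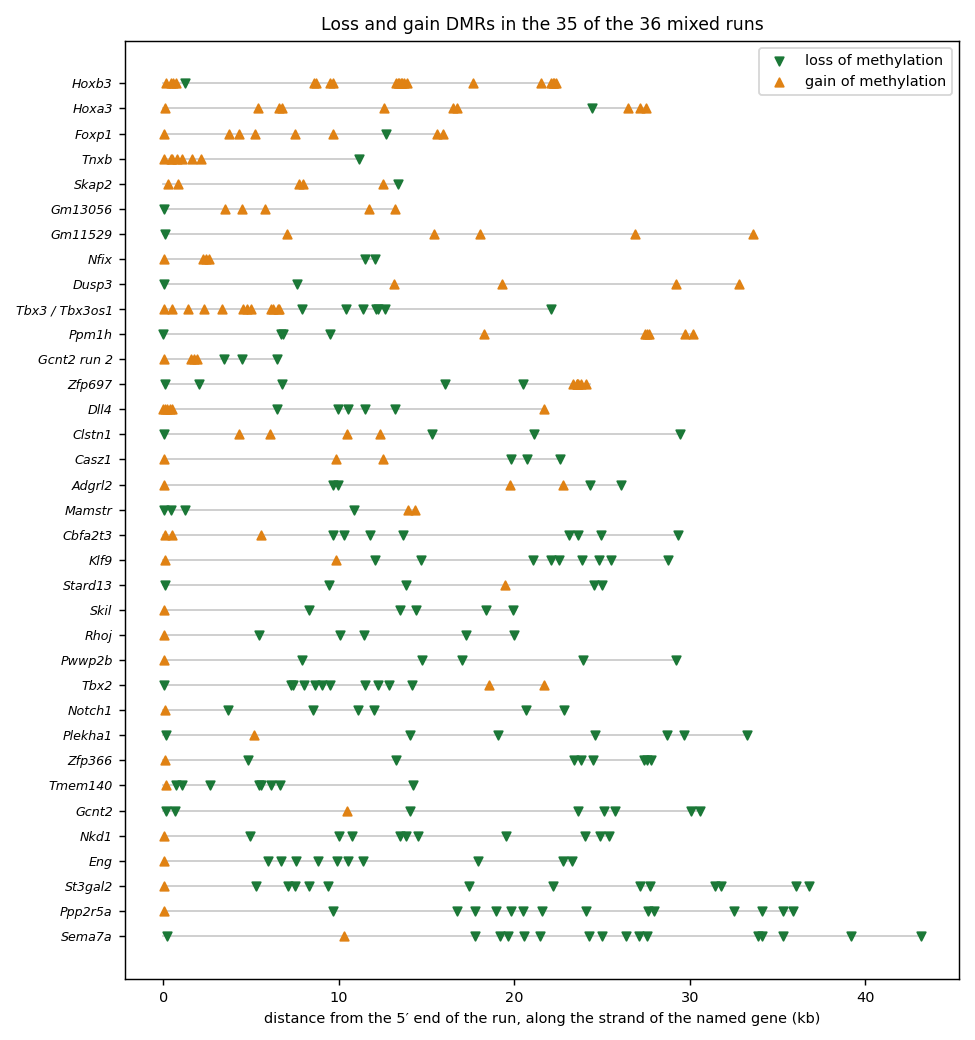
Position of each loss (green, pointing down) and gain (orange, pointing up) DMR along 35 of the 36 mixed runs. The x axis gives kb from the 5′ end of each run along the strand of the gene that names it (Tbx3 for the Tbx3os1 run). Runs are ordered by their share of gain from the bottom up. In 25 of these runs the colours meet at a single switch.

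Neighbours of opposite direction lay further apart than neighbours of the same direction. The median gap was 5159 bp over the 47 opposite pairs, from 345 to 9745 bp, and 841 bp over the 259 pairs of the same direction. Only 3 opposite pairs (6.38%) were within 1 kb, against 137 pairs (52.9%) of the same direction. Both members lay in the body of 1 gene in 17 opposite pairs (36.2%) and in 213 same-direction pairs (82.2%). A RefSeq transcription start site (TSS) lay between the members in 17 opposite pairs (36.2%) and in 19 same-direction pairs (7.34%). The pairs were not matched for gap, and a wider gap is more likely to span a TSS or the end of a gene. Gap and direction were part of the choice of members, and these differences were not tested.

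**Figure D2:**
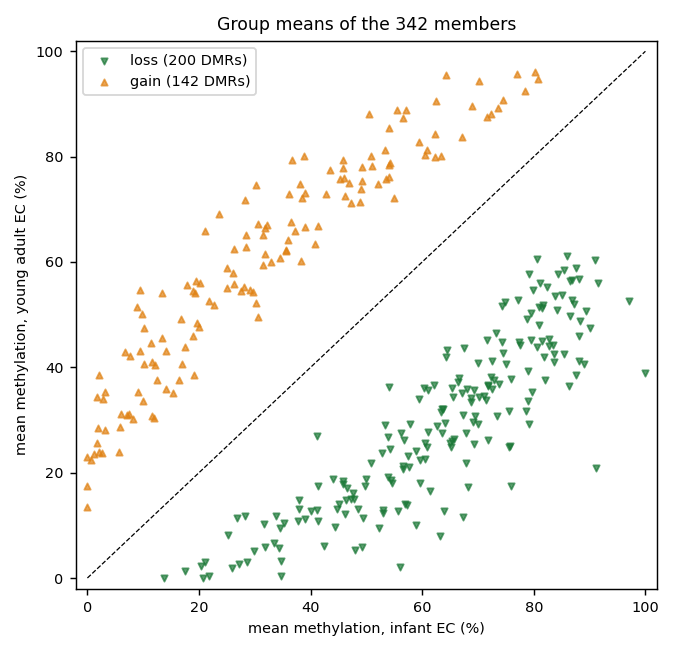
Mean methylation of the 342 members in infant (x axis, %) and young adult EC (y axis, %), as loss (green) and gain (orange). The dashed line marks equal means. Gain members lie mostly at low infant methylation (median 30.1%), loss members at high (median 65.5%).

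Loss members started high and ended low, and gain members the reverse. The 200 loss members had a median of 65.5% at the infant and 29.2% at the young adult stage, and the 142 gain members 30.1% and 61.8%. The median difference was -33.3 percentage points for loss and 27.7 for gain. Losses of the mixed runs were thus much like all 8414 losses of these chromosomes (61.5% to 25.4%), whereas their gains began lower than the 9754 gains as a whole (55.2% to 78.3%, median difference 20.4). Infant methylation was under 20% in 53 gain members (37.3%), against 1364 of all 9754 gains and 27.0% of the 244 gains in runs of gain only. Young adult methylation was above 80% in 18.3% of gain members and 46.7% of all gains. The medians of gains in runs of gain only (30.4% to 61.4%) were close to those of mixed runs. Within a run, the loss median exceeded the gain median in infant EC in 29 of 36 runs and lay below it in young adult EC in 34.

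The NOTCH ligand gene Dll4, which directs arterial and tip cell fate, had gains before its start and losses inside it. Its run (chr2:119322230-119344059) had 5 gains, then 5 losses, then 1 gain. The first 5 gains lay in intron 3 of the noncoding gene Gm14207, between 3069 and 3546 bp upstream of the Dll4 TSS, within 500 bp of each other, and all overlapped a CpG island. They rose from 20.2% to 56.1%, 35.9% to 64.2%, 26.3% to 55.7%, 16.7% to 49.2% and 15.3% to 35.2%. The 5 losses lay inside Dll4 (chr2:119325784-119335666), 4 in exons and 1 in intron 9, and fell from 28.2% to 11.7%, 44.0% to 18.8%, 64.4% to 43.4%, 57.5% to 23.1% and 80.9% to 51.5%. In infant EC the upstream gains lay below 4 of the 5 losses, and in young adult EC they lay above 3 of the 5. Notch1, which encodes a receptor of DLL4, had 5 losses in its intron 2 (between 34.5% and 65.6% in the infant, between 9.56% and 34.3% in the young adult) and 1 in its promoter, within the neighbouring noncoding gene Gm35978 (37.9% to 14.8%). Its lone gain (chr2:26508259-26508407) lay upstream of the gene and rose from 14.2% to 43.2%. Of the 24 NOTCH pathway genes listed, 11 (45.8%) held any DMR, and Dll4 and Notch1 (8.33%) held members, all of them losses. Of all 24963 annotated genes counted in this way, 18.1% held any DMR and 0.216% (54 genes) a member, the background for this and the following lists.

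Eng and Skil, genes of TGFβ signaling, had a lone gain on the 5′ side of their losses, as Notch1 did. Eng encodes endoglin, a TGFβ co-receptor of EC. A single gain 3752 bp upstream of its TSS (chr2:32642812-32642875) rose from 12.1% to 40.4%. It was followed by 10 losses in introns 1 and 2, which fell from between 29.9% and 67.3% to between 5.08% and 36.0%. The largest, at chr2:32665918-32666294, fell from 67.3% to 11.7% over 7 CpGs. Intron 1 of Eng also holds Mir1954, and 3 of the 10 losses were placed at the ends of this miRNA gene by the annotation. Skil encodes SnoN, a repressor of SMAD-dependent transcription. A gain 1776 bp upstream rose from 12.6% to 37.5%, and 5 losses in the gene, 4 of them intronic, ended between 16.6% and 61.2%. Of the 47 TGFβ family genes found, 25 (53.2%, against 18.1% of all genes) held a DMR and only Skil (2.13%, against 0.216%) a member, Eng being on the endothelial list. Sema7a, which encodes a membrane-anchored semaphorin, had 13 losses in its body and a lone gain 2290 bp upstream (63.3% to 80.1%). It was the sole gene with a member among 29 semaphorin and plexin genes (3.45%, against 0.216% of all genes), 20 of which (69.0%, against 18.1%) held a DMR. A single gene with a member is too few to set the TGFβ list or the semaphorin list apart from all genes.

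**Figure D3:**
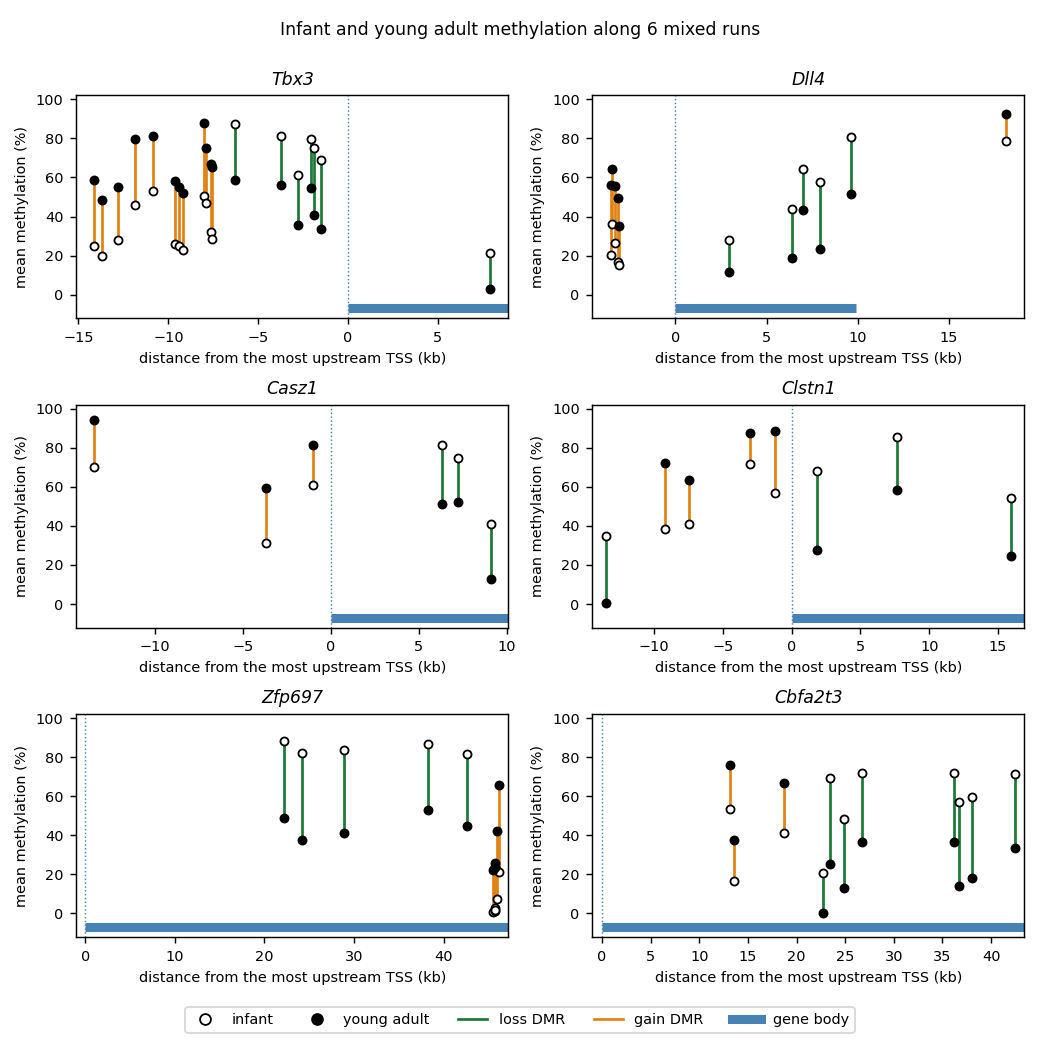
Mean methylation (%) in infant (open) and young adult EC (filled) along 6 mixed runs, against the distance from the most upstream TSS (kb). Each line is a DMR, green for loss and orange for gain, and the blue bar is the gene body. Gains lie upstream of Tbx3, Dll4, Casz1 and Clstn1, in the last exon of Zfp697, and on the 5′ side of the losses in Cbfa2t3.

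Several mixed runs lay at genes of developmental transcription factors. Of 64 listed genes 45 held any DMR and 7 a member, among them Hoxa3, Hoxb2, Hoxb3, Nfix, Tbx2 and Tbx3. These shares were 70.3% and 10.9%, against 18.1% and 0.216% of all annotated genes. The run at Tbx3, a T-box repressor, had 12 gains followed by 7 losses (chr5:119656686-119678811). The 12 gains lay 7577 to 14125 bp upstream of the Tbx3 TSS, in intron 1 of the divergent noncoding gene Tbx3os1, and rose from between 19.7% and 53.3% to between 48.3% and 88.0%. The next 6 losses, 1518 to 6300 bp upstream of the same TSS, fell from between 61.1% and 87.6% to between 33.4% and 58.8%. The last loss, in an exon of Tbx3, fell from 21.1% to 3.11%. At the infant stage every gain member here was below every loss member upstream of the TSS, and in young adult EC the ranges overlapped.

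Tbx2, a related T-box gene, showed the directions the other way round. It had 10 losses in its exons and introns and 1 in the neighbouring 2610027K06Rik, which fell from between 63.7% and 88.9% to between 32.1% and 56.6%. They were followed by 2 gains downstream of the gene (73.6% to 89.2% and 17.0% to 40.7%). Casz1, which encodes a zinc finger factor, had 3 gains upstream, of which the nearest lay 978 bp before the TSS (60.8% to 81.2%), and 3 losses in intron 1 (81.6% to 51.2%, 74.9% to 52.4% and 41.2% to 12.8%). Klf9, a Krüppel-like factor gene, had 2 gains at the 5′ side (38.9% to 73.1% and 45.3% to 75.7%), then 2 intergenic losses and 7 losses in intron 1. Cbfa2t3, which encodes a transcriptional corepressor, had 3 gains and 8 losses all within its introns, with the gains on the 5′ side. The gains ended at 37.5% to 75.8%, and the losses at 0% to 36.6%. Nfix, of the nuclear factor I family, had 4 intronic gains (between 19.5% and 56.6%, then between 47.7% and 87.4%) on the 5′ side of 2 intronic losses that fell to 0.444% and 2.63%.

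Some runs were gain throughout except for a single loss. The run at Hoxb3 and Hoxb2 was the longest by number (22 DMRs, chr11:96332397-96354817) and held 21 gains, all of which overlapped a CpG island. Infant methylation of these 21 ranged from 0% to 64.3% (median 13.4%), and young adult methylation from 13.5% to 95.5% (median 47.5%). Of its gains 7 lay in exonic sequence of Hoxb3 shared with the antisense gene Hoxb3os, from chr11:96345664 to chr11:96346349, where methylation rose from between 0% and 33.0% to between 22.9% and 59.9%. The lone loss was that of the pair 461 bp apart. The Hoxa3 run held 10 gains and a loss in Hotairm1 (31.7% to 10.3%). At Foxp1, a forkhead gene expressed in EC among other cells, 8 gains rose from between 1.69% and 13.4% to between 23.8% and 54.2%. Between them a loss of 3 CpGs (chr6:99016381-99016393) fell from 73.3% to 46.5%, so that a region high in the infant lay among regions that were all low. Tnxb, a matrix protein gene, had 7 gains around its TSS and first exons and a loss in intron 5 (33.7% to 11.8%).

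At Zfp697, which encodes a zinc finger protein, the gains lay in an exon. Its 5 losses in intron 1 began between 81.4% and 88.3% and ended between 37.7% and 52.8%. Its 6 gains in an exon near the 3′ end (chr3:98427966-98428905) began at 0.702%, 2.6%, 1.2%, 1.7%, 7.7% and 21.0% and ended at 22.4%, 23.7%, 23.6%, 25.7%, 42.2% and 65.9%. Thus the most methylated part of the run in the infant lost and the least methylated gained, and the intron still ended above 4 of the 6 exonic gains.

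St3gal2, Ppp2r5a and Nkd1 held losses within 1 gene and a single gain upstream. St3gal2, a sialyltransferase gene, held 13 intronic losses and a gain 924 bp upstream of its TSS (80.7% to 94.8%). The largest loss of all members was in its intron 1 (chr8:110941057-110941179), where 3 CpGs fell from 91.1% to 20.9%. Ppp2r5a, which encodes a regulatory subunit of protein phosphatase 2A, held 13 losses in intron 1, another upstream, and a gain upstream (42.8% to 72.9%). Nkd1, which encodes an inhibitor of WNT signaling, had 10 intronic losses and an upstream gain (36.5% to 67.6%). Gcnt2, which encodes the I-branching glycosyltransferase and has several alternative first exons, held 2 mixed runs with 11 losses and 5 gains. In the second, 3 gains lay in an alternative first exon, 272 to 613 bp after its TSS (11.4% to 44.7%, 9.73% to 50.2% and 45.9% to 76.0%), and the 3 losses lay in the intron after it. In other runs the directions were more even. Ppm1h, a protein phosphatase gene, had 4 losses at its 3′ end and 6 gains beyond it. Clstn1, which encodes calsyntenin 1, had 4 gains upstream, 3 losses in intron 1 and a loss further upstream that fell from 34.7% to 0.444%.

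Rhoj, a small GTPase gene expressed in EC, had a gain (80.2% to 96.1%) before 5 losses, all in intron 1. It was the only gene with a member among the 46 genes of the cytoskeleton list (2.17%), 38 of which (82.6%) held any DMR. A single gene is too few to set this list apart from all genes. Rasip1, which encodes a RAS-interacting protein needed for vessel lumens, held 3 losses. These stood beside a loss in an exon of Mamstr (63.2% to 8.03%) and 2 gains near its 3′ end. Plekha1, an adaptor gene, held the second largest loss, a 3-CpG DMR (chr7:130885567-130885572) that fell from 100% to 38.9%, and Tmem140 the third (75.9% to 17.5%). No member lay in a gene of the VEGF, FGF and angiopoietin list (34 genes, 61.8% with any DMR), the WNT list (43 genes, 44.2%), the matrix and adhesion list (53 genes, 54.7%) or the chromatin list (29 genes, 62.1%). With 0.216% of all genes holding a member, lists of this size would hold none at the background share, so these counts show no difference. Nkd1 and Tnxb were not on these lists. The markers of other lung and blood cell types held none either, and 5 of these 30 genes had any DMR, against 34 of 49 genes on the list of endothelial identity and 18.1% of all annotated genes. Of the endothelial list, Eng, Foxp1 and Tbx3 held members. The list analysed holds only regions that had been called different, so a share of called regions among all regions tested could not be given as a background.

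Relative to the gene that names each run, gains lay outside the gene more often than losses did, both upstream and downstream. Of the 26 runs with 1 switch, the gain block was on the 5′ side in 18 and the loss block in 8. Upstream of the gene lay 41 gains (28.9%) and 28 of the 200 losses, within it 70 gains (49.3%) and 167 losses (83.5%), and downstream 31 gains (21.8%) and 5 losses (2.5%). Of the 14 lone gains, 11 were upstream and 3 within the gene. Every gain was outside and every loss inside the gene in 9 runs (Casz1, Dll4, Dusp3, Eng, Gm13056, Nkd1, Ppm1h, Skil and St3gal2), and the reverse held in 1. A further 9 runs lay wholly within 1 gene. As the naming gene was that with the most midpoints (Tbx3 for the run at Tbx3os1, and the nearest gene at Adgrl2), it tends to be the gene of the more frequent direction, and these counts were not tested. Dll4 tied with Gm14207 at 5 midpoints each and Mamstr with Rasip1 at 3 each, and a run named by the other gene of its tie would be counted differently. The run at Tbx3os1 has 18 midpoints in that gene and 1 in Tbx3, which lies on the opposite strand. Oriented by Tbx3os1, its 12 gains would lie within the gene and its loss block on the 5′ side.

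**Figure D4:**
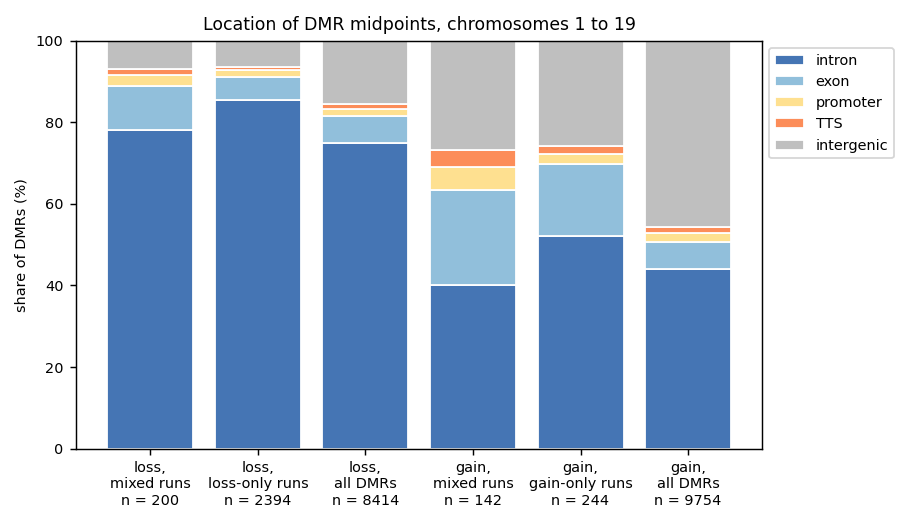
Share (%) of DMR midpoints in introns, exons, promoters, around transcription termination sites (TTS) and between genes, for losses and gains of mixed runs, of runs with a single direction, and of all DMRs on chromosomes 1 to 19. Introns hold 78.0% of the losses but 40.1% of the gains in mixed runs.

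Losses and gains of the same run differed in their place relative to genes. Introns held 78.0% of loss and 40.1% of gain members, intergenic regions 7.0% and 26.8%, exons 11.0% and 23.2%, and promoters 2.5% and 5.63%. With each run as a unit, the intron share was higher for losses in 24 runs, higher for gains in 4 and tied in 8 (exact two-sided sign test, Benjamini-Hochberg adjusted p = 0.00054 over 6 measures). The intergenic share was higher for gains in 18 runs, higher for losses in 1 and tied in 17 (adjusted p = 0.000458, exact sign test). A run with a single minority member can only give a share of 0% or 100% there. In the 15 runs with 2 or more of each direction, losses had the higher intron share in 8 and gains in 3. The exact sign test gave adjusted p = 0.34. Gains had the higher intergenic share in 7 of these runs and losses in 0 (exact sign test, adjusted p = 0.0938). With a joining gap of 5 kb, losses had the higher intron share in 7 runs and gains in 0 (adjusted p = 0.0938, exact). The intergenic share was then higher for gains in 4 and losses in 0 (adjusted p = 0.375, exact), too few untied runs to pass. The direction of both differences is that of all DMRs, since introns held 74.9% of all losses and 44.1% of all gains.

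Run by run, CpG density was compared between the directions by island overlap, GC content and number of CpGs. Over all members, 49.3% of gains and 20.5% of losses overlapped a window meeting island criteria, against 15.2% and 11.6% of all DMRs. In gain-only runs 32.8% of gains did so, and in loss-only runs 13.4% of losses. Under stricter criteria the shares were 35.9% of gains and 2.0% of losses in mixed runs. They were 16.8% of gains in gain-only runs and 1.71% of losses in loss-only runs, and 4.11% of all gains and 0.832% of all losses. By run the island share was higher for losses in 17 and for gains in 13 (exact sign test, adjusted p = 0.585). This direction turned under the strict criteria (losses higher in 3 runs, gains in 10), with a joining gap of 5 kb (3 and 4) or 20 kb (53 and 59) and with 2 or more minority DMRs (5 and 9), with no test past the threshold. The Hoxb3, Zfp697, Hoxa3 and Dll4 runs held 38 of the 70 island gains. GC content (higher for gains in 21 of 35 untied runs), CpGs in the window (23 of 34) and distance to the nearest TSS (smaller for gains in 24 of 36) gave exact adjusted p = 0.373, 0.0979 and 0.0979. The TSS distance turned with a joining gap of 20 kb, smaller for gains in 73 runs and for losses in 78 (exact sign test, adjusted p = 0.745). GC content passed with a joining gap of 20 kb (gains higher in 91 runs, losses in 60, exact adjusted p = 0.0287), and CpGs in the window at a minimum difference of 20 percentage points (17 and 5, exact adjusted p = 0.0338). The mean number of CpGs was 4.52 per loss and 4.08 per gain member, and 46.5% and 59.2% had exactly 3, the least the calling allowed.

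The search for 5 short motifs in windows of 200 bp around the midpoints, on both strands, gave shares near or below those of all DMRs, with no test. The ETS core AGGAAG occurred in 22.5% of loss and 18.3% of gain members, against 29.3% of all losses and 28.0% of all gains. The motif of GATA factors, AGATAA, occurred in 20 of the 200 loss members and 6.34% of gain members (13.8% and 10.1% of all), AP-1 (TGANTCA) in 8.0% and 4.93% (6.82% and 6.25%), TEAD (GGAATG) in 11.0% and 6.34% (11.2% and 12.1%), and FOX (TGTTTAC) in 4.5% and 1.41% (5.91% and 3.03%). A match describes letters and does not show binding.

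Mixed runs contained gene starts more often than dense runs of a single direction. There were 188 runs of loss only and 32 of gain only, with a median of 10 and 7 DMRs and a median span of 21.1 and 15.9 kb, against 8.5 DMRs and 23.9 kb in the mixed runs. A TSS lay inside or within 1 kb of 29 of 36 mixed runs (80.6%), 73 of 188 loss-only runs (38.8%) and 13 of 32 gain-only runs (40.6%). Both differences passed Fisher's exact test (two-sided, odds ratios 6.53 and 6.05, adjusted p = 3.33e-05 and 0.0032 over 6 tests). With a joining gap of 5 kb neither passed the exact test (39.5 and 19.6 percentage points, adjusted p = 0.118 and 0.644), and the difference from gain-only runs also missed with a gap of 20 kb (14.3 points, adjusted p = 0.0874) and in runs of 8 or more (37.1 points, adjusted p = 0.0642). The difference from loss-only runs shrank from 41.7 to 19.9 points with a gap of 20 kb (66.9% against 47.0%, Fisher's exact test, adjusted p = 0.000688). A span of 10 to 40 kb was chosen as a further setting after the data were seen. Among runs of this span the shares were 79.4%, 41.6% and 45.5% (Fisher's exact test, adjusted p = 0.000548 and 0.0291). Run length as a cause was not tested.

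At least 50% of the midpoints lay in a single gene in 29 mixed runs (80.6%), fewer than the 94.7% of loss-only runs (adjusted p = 0.0136, Fisher's exact test), and 71.9% of gain-only runs (adjusted p = 0.568). The difference from gain-only runs was 8.68 percentage points, and 20.3 in runs of 8 or more. It turned to -5.23 with a gap of 5 kb and -5.21 with 2 or more minority DMRs, none past the threshold. A DMR over an island window was present in 86.1% of mixed, 62.2% of loss-only and 71.9% of gain-only runs (Fisher's exact test, adjusted p = 0.0129 and 0.275). The island difference from gain-only runs turned to -10.5 points with a gap of 5 kb, not past the threshold. With 2 or more minority DMRs it passed (28.1 points, Fisher's exact test, adjusted p = 0.0496). The gene difference from loss-only runs did not pass the exact test with a gap of 5 kb (-6.68 percentage points, adjusted p = 0.644), in runs of 8 or more (-13.0 points, 0.0759) or at a minimum difference of 20 percentage points (-2.91 points, 0.64). It was larger with a gap of 20 kb (-23.9 points, exact adjusted p = 1.09e-09) and with 2 or more minority DMRs (-28.0 points, exact adjusted p = 0.0048). The island difference from loss-only runs, 23.9 points, did not pass with a gap of 5 kb (18.9 points, 0.644) or at a minimum difference of 20 percentage points (24.6 points, 0.0631). It was 15.6 points with a gap of 20 kb (exact adjusted p = 0.00359) and 37.8 points with 2 or more minority DMRs (exact adjusted p = 0.0048). Under the strict island criteria the shares were 36.1%, 7.45% and 34.4%. The difference was 28.7 points from loss-only (Fisher's exact test, adjusted p = 7.45e-05) and 1.74 points from gain-only runs. The rule placed gains in every mixed run and in no loss-only run. Strict islands were overlapped by 4.11% of all gains and 0.832% of all losses, and 45.7% and 15.5% were intergenic. The gene and island differences from loss-only runs cannot be told apart from this choice by sign. Of all members, 281 (82.2%) had their midpoint in a gene body, spread over 54 genes, against 66.5% of all DMRs. By direction, mixed runs were close to runs of a single direction. Intergenic midpoints made up 7.0% of losses in mixed and 6.43% in loss-only runs, and 26.8% of gains in mixed and 25.8% in gain-only runs.

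**Figure D5:**
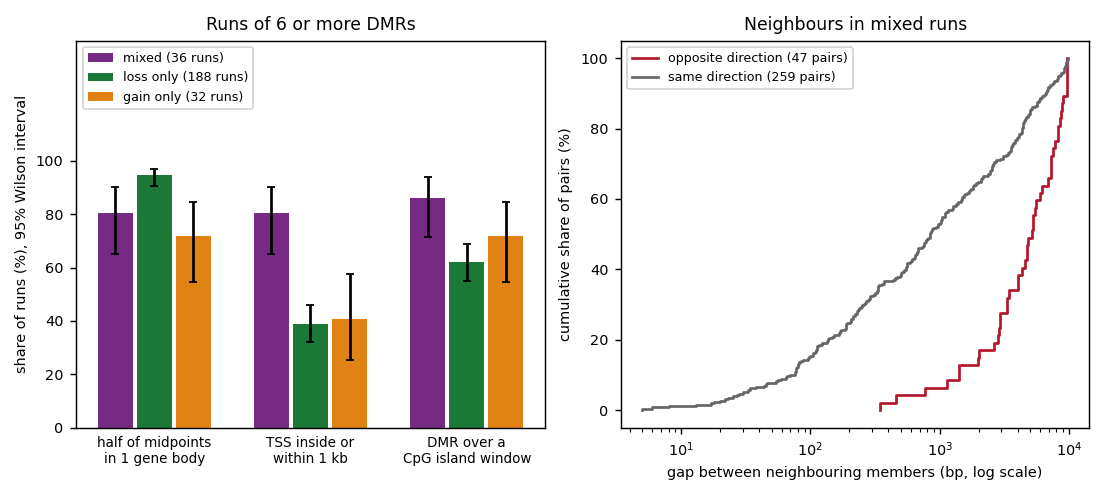
Left, share of mixed, loss-only and gain-only runs (%) with at least 50% of midpoints in 1 gene, with a TSS inside or within 1 kb, and with a DMR over a CpG island window (bars, 95% Wilson intervals, counting error only). Right, cumulative share of neighbouring pairs (%) against their gap (bp, log axis), for 47 opposite and 259 same-direction pairs, of which 6.38% and 52.9% were within 1 kb.

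At the border of the rule, the 11 mixed runs of exactly 6 DMRs held 66 members, 32 of them gains, with median differences of -29.0 and 23.1 percentage points. Just outside it, 30 mixed runs of 5 DMRs held 150, 79 of them gains, with median differences of -31.2 and 26.0. The largest gap bridged was 9853 bp, and the smallest that ended a mixed run was 10368 bp, at the Hoxa3 run. Mixed runs occurred on 15 chromosomes. The X chromosome had 165 DMRs and no run of 6 or more.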

How the data were processed

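T-WGBS libraries were made from 30 ng DNA of 3 infant and 3 young adult samples. The authors trimmed adaptors (SeqPrep), aligned reads to in silico converted mm10 (BWA 0.6.1), removed duplicates (Picard) and excluded 9 bases at the tagmented read ends. The authors called DMRs with bsseq (R 3.2.2) on unsmoothed data, requiring 8-fold coverage in at least 2 of 3 samples, 3 or more consecutive CpGs with p under 0.05 each, and a difference of at least 10 percentage points. Selecting CpGs by the difference inflates the differences listed. The deposited values are the fraction of methylation per DMR as a mean of each group, printed here as percent, and depth is unknown. The deposited nearest promoter and direction columns were checked (the direction matched the sign in all 18333 DMRs) and not otherwise used.

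File positions count from 0 and mark the cytosine of the first and last CpG. They were converted to positions counted from 1 that include the last CpG, whereas gaps of the joining rule used file positions. Midpoints were placed on 45657 curated RefSeq transcripts (GRCm38.p6, the build of mm10) as promoter (1 kb upstream to 100 bp downstream of a TSS), TTS (100 bp upstream to 1 kb downstream), exon, intron or intergenic. CpG islands were windows of 200 bp with GC of 50% or more and observed to expected CpG of 0.6 or more (strict: 500 bp, 55%, 0.65). Exact sign tests over runs and Fisher's exact tests used scipy 1.17.1 in Python 3.11.15, and treat runs, not mice, as units. The run builder recovered 200 of 200 runs planted in simulated data. Named genes were the 12 genes with most members, those of the 10 runs with most minority members and the 10 with most members, the 5 largest losses and gains, the 8 closest opposite pairs, and list genes with a member. Tnxb, Rasip1, Gm13056, Dusp3 and genes next to a named run were named after their values were seen. Members and gene lists were chosen with earlier results of these data known. Alternatives were the joining gap, run size, minimum difference, minority size, the X chromosome, island criteria, annotation and DMR placement. Some results at single genes are not reported here.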

Additional observations from a re-analysis of the deposited data

How the results depend on the processing

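No paired analysis was possible because the list holds group means only, so neither the fit with a replicate block nor the fits that leave out a replicate could be made. With a gap of at most 5 kb, 9 mixed runs with 86 members (47.7% gain) were left. There the losses had the higher intron share in 100% of untied runs (adjusted p = 0.0938, exact sign test), the higher intergenic share in 0% (0.375) and the higher island share in 42.9%. Mixed minus loss-only runs then differed by -6.68 percentage points for midpoints in 1 gene, 39.5 for a TSS and 18.9 for an island, and mixed minus gain-only runs by -5.23, 19.6 and -10.5, none past the threshold. With a gap of at most 20 kb there were 151 runs and 1709 members (32.1% gain). The losses were higher in 47.3% of untied runs for islands, in 39.7% for GC content (now past the threshold, exact adjusted p = 0.0287) and in 48.3% for TSS distance, and the TSS difference from gain-only runs was 14.3 points (adjusted p = 0.0874, Fisher's exact test). Runs of 8 or more left 22 mixed runs, a 1-gene difference from loss-only runs of -13.0 points and a TSS difference from gain-only runs of 37.1 points, neither past the threshold. A minimum difference of 20 percentage points left 22 runs and 206 members. CpGs in the window were then higher for losses in 22.7% of untied runs (exact adjusted p = 0.0338), and differences from loss-only runs of -2.91 points (1 gene) and 24.6 (island) missed the threshold. With at least 2 minority DMRs there were 15 runs and 140 members (47.9% gain). Losses were higher in 72.7% (introns), 0% (intergenic) and 35.7% (islands), none past the threshold, and mixed minus gain-only runs differed by -5.21 points (1 gene) and 28.1 (island, Fisher's exact adjusted p = 0.0496). Strict islands were more frequent in losses in 23.1% of untied runs. The intron and intergenic differences kept their direction under all alternatives run, as did the TSS differences from both kinds of run. Using protein-coding genes only or placing DMRs by any overlap moved no call. Adding the X chromosome could not change a value, since it held no run of 6 or more. Leaving out miRNA genes or keeping runs of 10 to 40 kb, both chosen after seeing the data, moved values but no call. The causes were not tested. The unknown coverage and the absence of sample values limit every mean printed.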
